A study of Verbena bonariensis with 6 samples.

Results

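Homeodomain-leucine zipper (HD-Zip) factors are transcription factors found in plants, in which a DNA-binding homeodomain is followed directly by a leucine zipper through which the proteins pair. They were examined in leaves of control and of cold-treated seedlings of Verbena bonariensis. A gene here is a cluster, the unit into which the authors grouped the transcripts they assembled, and the table held 9740 clusters of transcription factors and other regulators. Clusters were counted as HD-Zip when they stood in the homeobox (HB) family and the description of their closest protein, either in the non-redundant (NR) protein database or in Swiss-Prot, named a homeobox-leucine zipper or HD-ZIP protein. The rule took 164 of the 9740 clusters, out of 349 clusters in the HB family. The NR description named 155 of them and the Swiss-Prot description alone named 9.

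The plants were 3-month-old seedlings of the strain Finesse, raised in a greenhouse with a 16 h photoperiod at 25°C by day and 16°C by night. Control seedlings stayed under unchanged conditions, while cold seedlings spent 24 h at 4°C, followed by 4 h of freezing at -4°C. Leaf RNA was sequenced in 3 control and 3 cold libraries, which the labels describe as biological replicates. All cold libraries were taken after both steps, so the effect of the chilling step and that of the freezing step cannot be told apart. The growth temperatures are those of the labels, and the methods of the study give other ones for its greenhouse.

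HD-Zip factors form 4 subfamilies with distinct known roles. In Arabidopsis, members of HD-Zip I respond to water deficit, abscisic acid (ABA) and light, and HD-Zip II includes factors induced by shade that act mainly as repressors. HD-Zip III proteins carry a lipid-binding (START) domain, set the upper side of the leaf and pattern the vasculature, and are restrained by microRNAs, while HD-Zip IV proteins, which also carry a START domain, act in the epidermis and its hairs.

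The protein names placed every cluster in a subfamily, with 44 clusters in HD-Zip I, 45 in HD-Zip II, 26 in HD-Zip III and 49 in HD-Zip IV. NR and Swiss-Prot names never pointed to different subfamilies, though 41 of the 151 clusters named by both had different protein names. The domains listed in the table, which the rule did not use, followed the same division. A START domain was listed for 18 of the 26 HD-Zip III clusters and 36 of the 49 HD-Zip IV clusters, and for 0 clusters of the other subfamilies. The N-terminal domain typical of HD-Zip II was listed for 16 HD-Zip II clusters and for 1 other, the HDG12 cluster Cluster-14918.102467. The clusters of HD-Zip I and II were shorter, with median lengths of 1130.5 and 1102 bases, against 3074.5 and 2827 bases for HD-Zip III and IV. A homeobox entry was lacking for 11 clusters, and 4 clusters with HAT22 as best match carried a dehydrin entry.

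Many clusters pointed to the same protein. The 164 clusters had 53 closest NR proteins, called best matches below, of which 21 were the match of a single cluster, and MERISTEM L1 had the most with 17 clusters. The counting could divide reads between such clusters, and the counts of 139 of the 164 clusters were fractional, so the level of a single cluster is uncertain. Each comparison was therefore made by cluster and again on the summed counts of each best match, and a sum is named below by its protein and its most abundant cluster. The names are those of the nearest NR protein, or of the Swiss-Prot protein where the NR description names no HD-Zip protein. The NR proteins are of sesame (Sesamum) for 118 clusters and of monkeyflower (Erythranthe) for 35. The names of HAT9 (Cluster-14918.105951), ROC4 (Cluster-41728.0) and ATHB-6 (Cluster-29915.0) are weakly grounded, since the Swiss-Prot match of each was not an HD-Zip protein.

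The deposited table carried 991180 to 1213366 counts per control library and 722556 to 791041 per cold library. HD-Zip clusters held 24154 to 29474 of these counts in control and 21215 to 23666 in cold, which was 2.43% to 2.44% of the table in control and 2.94% to 3.04% in cold. Genes of other tissues were checked by name in the table. The 10 sums of GLK and sigma factors, regulators of the chloroplast in leaf cells and so markers of green leaf tissue, all passed the filter on low counts. Of these, 5 were higher (50%, beside 35.0% of all sums) and 4 lower (40%, beside 36.9%) in cold. The flower factor deficiens (Cluster-14918.131537) stood at 21.05, 22.5 and 29.2 normalized CPM (counts relative to the table's total of each library, after scaling) in control and at 1.52, 0 and 0 in cold. The root list had 7 sums and 6 were tested, with 2 higher (33.3%, beside 35.0%) and 2 lower (33.3%, beside 36.9%) in cold. It also took in scarecrow-like protein 18 (Cluster-14918.210358), which was higher in cold, and scarecrow-like protein 21 (Cluster-14918.83445), which did not pass the threshold. By their NR names these are not SCARECROW itself. The part of the root list in the results was not tested.

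In summed FPKM, a level corrected for cluster length and library size, the subfamilies differed in direction. The HD-Zip I clusters together had 631.09, 630.59 and 634.00 FPKM in the control libraries and 1112.5, 1142.9 and 1122.2 in the cold libraries. The groups were far apart, and the cold mean was 1.78 times the control mean. HD-Zip II had 286.99, 275.01 and 282.74 FPKM in control and 280.97, 296.33 and 299.07 in cold, and here the groups overlapped. FPKM is scaled to the reads of the whole library, and normalized CPM to the regulators of the table. In normalized CPM, summed over its best matches, HD-Zip II had 4236, 4186 and 4154 in control and 5871, 6292 and 6226 in cold, without overlap. Its direction thus depended on the scale.

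HD-Zip III had 83.45, 82.28 and 84.98 FPKM in control and 40.67, 45.65 and 47.47 in cold, so that the control mean was 1.87 times the cold mean. HD-Zip IV had 159.15, 153.53 and 157.20 FPKM in control and 57.63, 59.58 and 56.10 in cold, and the control mean was 2.71 times the cold mean. In normalized CPM, summed over best matches, both were also lower in cold, by a smaller proportion. HD-Zip III had 2556, 2699 and 2636 in control and 1879, 2003 and 2071 in cold. HD-Zip IV had 4846, 4694 and 4752 in control and 2422, 2599 and 2452 in cold. In the exact two-sided permutation test, 3 libraries against 3 cannot give a p below 0.1, whatever the distance between the groups. In leaf RNA, fewer cells of a type and less RNA per cell cannot be told apart.

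**Figure D1:**
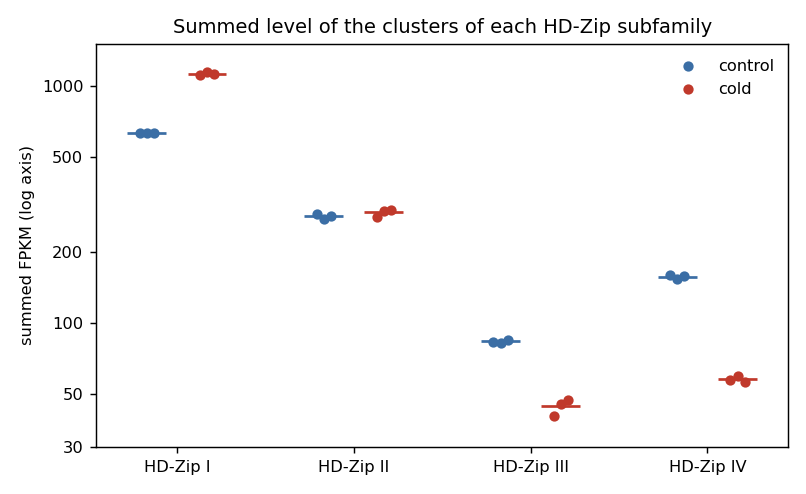
Summed FPKM of the clusters of each HD-Zip subfamily on a log axis, with 1 point for each of the 3 control and 3 cold libraries and a line at the group mean. HD-Zip I lies higher in cold (632 against 1126 FPKM), HD-Zip II overlaps, and HD-Zip III and IV lie lower in cold.

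Much of the HD-Zip I total lay in few proteins. The 3 rising best matches of highest FPKM, picked after their values were seen, were both HAT5 matches led by Cluster-14918.116723 and Cluster-14918.120533 and the ATHB-12 match Cluster-14918.94836. Without their 17 clusters, the other 27 HD-Zip I clusters summed to 280 ± 6.04 FPKM in control and 76.5 ± 2.87 in cold (SD, n = 3), so that the control mean was 3.66 times the cold mean. Over all subfamilies, the 164 clusters summed to 1153.7 ± 10.7 FPKM in control and 1520.4 ± 26.6 in cold, and the 147 clusters without these matches to 802 ± 15.8 and 471 ± 11.1. Since the 3 matches were picked because they rose, the lower level of what is left is favoured by that choice and is a description only.

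Each best match was then tested with the quasi-likelihood test of edgeR, with p-values adjusted after Benjamini-Hochberg over all 2352 sums of the table that passed the filter on low counts. Of the 53 HD-Zip sums, 38 were tested and 15 were not, which never exceeded 13 counts in any library. Among the 38, 8 sums (21.1%) were higher in cold, where the background over all sums was 35.0%, and 19 sums (50%) were lower, where the background was 36.9%. The other 11 did not pass the threshold of 0.05, and 7 of them overlapped between the groups. Of the 38, 31 did not overlap, near the share over all sums, 1833 of 2352. The median log2 fold change of the HD-Zip sums was -0.56, beside -0.06 over all sums tested.

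The choice of scale moved these counts. The main test is scaled to the regulators of the table themselves. Scaling to the reads of the whole library moved the median of all sums to -0.44 and that of the HD-Zip sums to -0.94. With that scaling, 7 of the 38 HD-Zip sums were higher and 27 lower, beside 667 higher and 1107 lower of all 2352 sums. All 19 lower calls and 7 of the 8 higher calls remained on that scale, and 8 further sums became lower. Log2 fold changes below are those of the main test, and values after ± are SD over the 3 libraries of a group.

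By cluster, 92 of the 164 were tested, and the 72 untested ones held 1.62% of the HD-Zip counts. Among the 92, 16 (17.4%) were higher in cold, beside 21.9% of all 5004 clusters tested, and 21 (22.8%) were lower, beside 23.6%. The median log2 fold change was -0.25, beside -0.14 over all clusters tested. The single clusters were more variable than the sums, with a common biological coefficient of variation of 0.639 against 0.162.

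**Figure D2:**
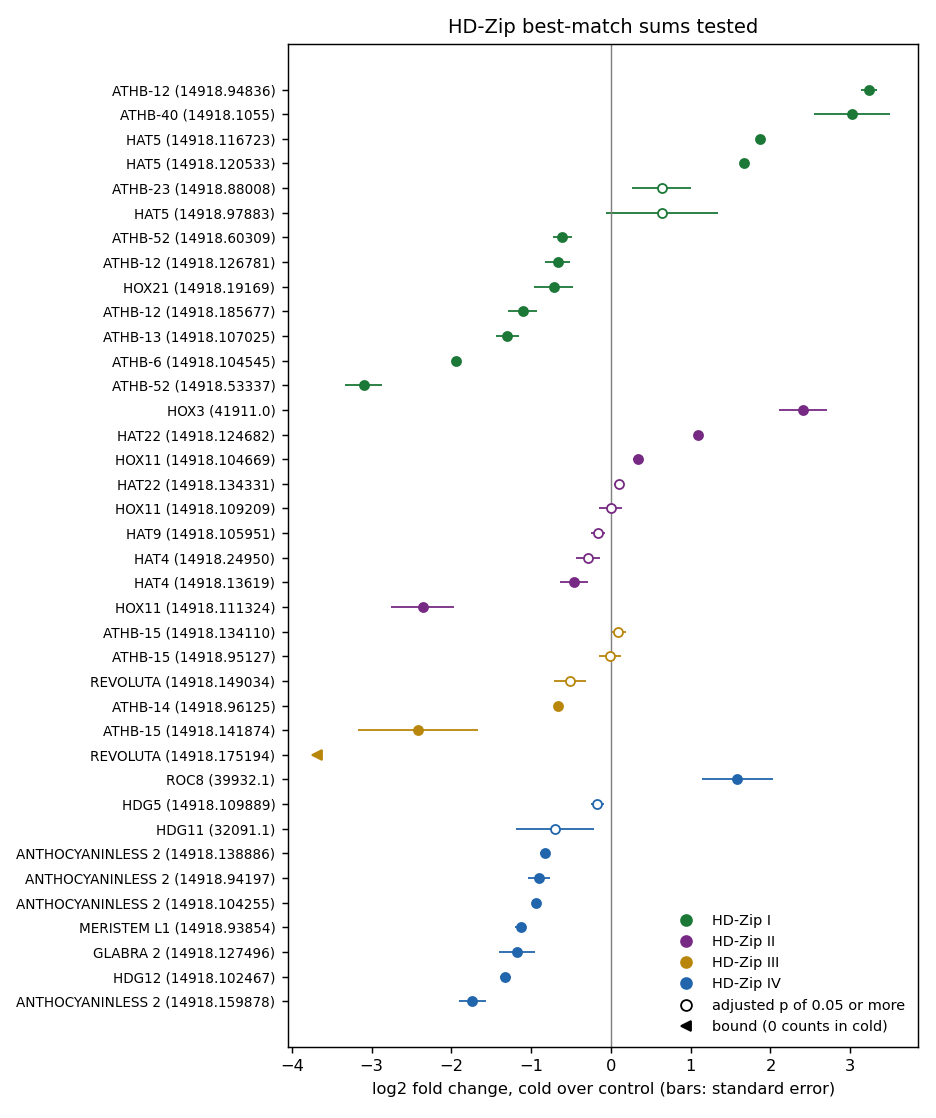
Log2 fold change, cold over control, of the 38 HD-Zip best-match sums tested, with colours for the subfamily and bars for the standard error. Filled markers are sums that passed the threshold, and white markers are sums that did not. The REVOLUTA sum led by Cluster-14918.175194, at 0 in each cold library, is an arrow without a bar. It stands at the smallest decrease that the floor on counts allows. HD-Zip I spreads to both sides, while 7 of the 10 HD-Zip IV sums tested were lower in cold and 1 was higher.

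HD-Zip I held both the largest increases and several of the largest decreases. Of its 15 sums, 13 were tested, 4 were higher (30.8%, beside 35.0% of all sums) and 7 were lower (53.8%, beside 36.9%) in cold, with a median log2 fold change of -0.61. By cluster, 27 were tested, 10 were higher (37.0%, beside 21.9% of all clusters) and 9 were lower (33.3%, beside 23.6%).

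HAT5, also called ATHB-1 and active in leaf development of Arabidopsis, was the most abundant HD-Zip protein by FPKM in both groups. The HAT5 sum led by Cluster-14918.116723, which joins 11 clusters, stood at 3360, 3619 and 3547 normalized CPM in control and at 12574, 13188 and 12684 in cold. Every cold library was more than 3 times as high as any control library, and the sum was 3.65-fold higher (log2 fold change 1.87, SE 0.04, adjusted p = 3.59e-09). Its level was 254 ± 8.86 FPKM (SD, n = 3) in control and 698 ± 7.99 in cold.

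The HAT5 sum led by Cluster-14918.120533, with 5 clusters, stood at 2104, 2098 and 2129 normalized CPM in control and at 6508, 6936 and 6670 in cold. The groups lay far apart, and the sum was 3.18-fold higher in cold (log2 fold change 1.67, SE 0.03, adjusted p = 3.89e-09). The third HAT5 sum, led by Cluster-14918.97883, had 85.3, 7.57 and 45.4 normalized CPM in control and 92.9, 46.1 and 73.6 in cold. It overlapped between the groups and did not pass the test (adjusted p = 0.439).

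ATHB-12, which in Arabidopsis is induced by ABA and water deficit and restrains growth, was the best match of 3 sums that did not move together. The sum of Cluster-14918.94836, a single cluster of 669 bases, had 197, 162 and 158 normalized CPM in control and 1456, 1691 and 1698 in cold. It was 9.41-fold higher in cold (log2 fold change 3.23, SE 0.10, adjusted p = 3.66e-08), the largest increase among the HD-Zip sums. By FPKM it went from rank 13 of the HD-Zip sums in control to rank 2 in cold, from 26.4 ± 3.35 to 184 ± 12.1 FPKM.

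The ATHB-12 sum led by Cluster-14918.126781 had 123, 106 and 126 normalized CPM in control and 74.5, 81.9 and 66.1 in cold. It was lower in cold without overlap (log2 fold change -0.67, SE 0.16, adjusted p = 0.00627). The ATHB-12 sum led by Cluster-14918.185677 had 104, 107 and 107 normalized CPM in control and 53.2, 54.1 and 40.8 in cold, again without overlap, and was 2.15-fold lower (log2 fold change -1.11, SE 0.18, adjusted p = 0.00078).

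These 3 matches rest on unequal evidence. The alignment score to the NR protein was 281 for Cluster-14918.94836, 724 for Cluster-14918.126781 and 597 for Cluster-14918.185677. Swiss-Prot named Cluster-14918.94836 and Cluster-14918.126781 after ATHB-7, a close relative of ATHB-12 that also responds to ABA and water deficit, and named Cluster-14918.185677 after ATHB-12. Which of the pair each sum stands for is therefore uncertain, the sum with the largest increase included.

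ATHB-40, which in Arabidopsis raises ABA in axillary buds, was scarce in control. Its sum led by Cluster-14918.1055 had 2.75, 5.24 and 3.16 normalized CPM in control and 38.0, 29.4 and 26.7 in cold. It was 8.12-fold higher in cold without overlap (log2 fold change 3.02, SE 0.47, adjusted p = 0.00065), though at 2.78 FPKM it remained far below HAT5.

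The most abundant protein that fell was ATHB-6, which in Arabidopsis is bound by an ABA-pathway phosphatase and dampens ABA responses. Its sum led by Cluster-14918.104545 had 3680, 3617 and 3675 normalized CPM in control and 927, 964 and 965 in cold. The libraries of each group lay close together, and the sum was 3.84-fold lower in cold (log2 fold change -1.94, SE 0.03, adjusted p = 2.17e-09). It had 172 ± 1.45 FPKM in control, the second level of the family, and 34.6 ± 0.443 in cold, the seventh.

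ATHB-52 had the largest decrease in HD-Zip I. Its sum of Cluster-14918.53337 had 212, 211 and 233 normalized CPM in control and 36.5, 23.2 and 16.9 in cold. It was 8.58-fold lower (log2 fold change -3.10, SE 0.24, adjusted p = 8.33e-06), and no cold library came near the control range. The other ATHB-52 match, Cluster-14918.60309, had 306, 284 and 260 normalized CPM in control and 211, 181 and 165 in cold, a smaller decrease (log2 fold change -0.61, adjusted p = 0.00212).

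ATHB-13, a factor of cotyledon shape and cold tolerance in Arabidopsis, had 235, 216 and 227 normalized CPM in control and 74.0, 105 and 95.7 in cold in the sum led by Cluster-14918.107025. It was lower in cold (log2 fold change -1.30, SE 0.14, adjusted p = 7.87e-05). HOX21 (Cluster-14918.19169), named after a rice protein in NR and led by a HAT7 name in Swiss-Prot, had 76.0, 57.6 and 74.2 normalized CPM in control and 39.5, 35.5 and 50.7 in cold (log2 fold change -0.72, adjusted p = 0.0278). That call was lost on leaving out control replicate 1 or 3 or cold replicate 1 or 2, with adjusted p between 0.0582 and 0.0824. ATHB-23 (Cluster-14918.88008) overlapped between the groups (adjusted p = 0.16). Its name is uncertain, since Swiss-Prot named 4 of its clusters, though not the leading one, after ATHB-51.

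**Figure D3:**
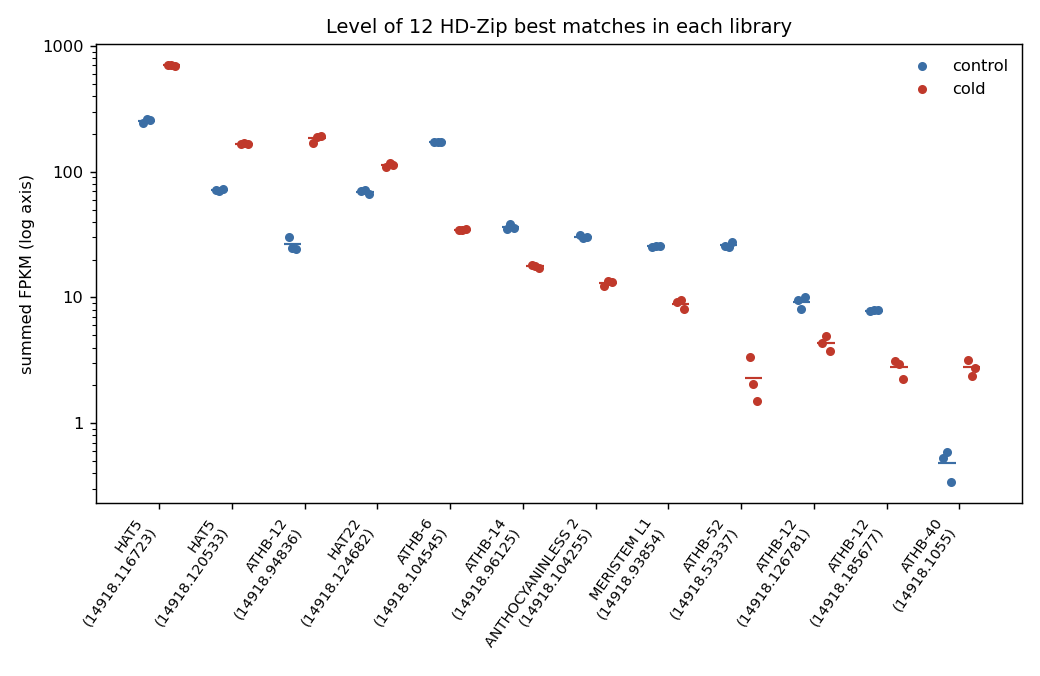
Summed FPKM, on a log axis, of 12 HD-Zip best matches in the 3 control and 3 cold libraries, with a line at each mean. Both HAT5 matches, ATHB-12 (Cluster-14918.94836), HAT22 and ATHB-40 lie higher in cold and the other 7 lower, ATHB-6 going from 172 to 34.6 FPKM.

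Of the 14 HD-Zip II sums, 9 were tested, 3 were higher (33.3%, near the background of 35.0%) and 2 were lower (22.2%, beside 36.9%) in cold, with a median log2 fold change of -0.0047. On the scale of the whole library 2 were higher and 6 lower, beside 667 higher and 1107 lower of all 2352 sums. No direction can therefore be given for the subfamily. By cluster, 23 were tested, 3 were higher (13.04%, beside 21.9% of all clusters) and 1 was lower (4.35%, beside 23.6%). Both shares were below those of all clusters. The higher ones were Cluster-41911.0 of HOX3, and Cluster-14918.124682 and Cluster-14918.115858 of HAT22. The lower one was Cluster-14918.111324 of HOX11. The call of Cluster-14918.115858 was lost in 5 of the 6 fits that left out 1 library, with adjusted p between 0.0911 and 0.147.

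HAT22, known in Arabidopsis for ABA-dependent leaf senescence under drought, was the most abundant HD-Zip II protein in cold by FPKM. Its sum led by Cluster-14918.124682 had 1549, 1595 and 1489 normalized CPM in control and 3144, 3442 and 3283 in cold. It was 2.13-fold higher without overlap (log2 fold change 1.09, SE 0.05, adjusted p = 2.16e-07), and it had 69.3 ± 2.51 FPKM in control and 112 ± 3.54 in cold. The second HAT22 sum, led by Cluster-14918.134331, averaged 1106 ± 50.9 normalized CPM in control and 1183 ± 54.97 in cold (adjusted p = 0.141), and its log2 fold change of 0.10 became -0.28 on the scale of the whole library.

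HOX3, named after a rice protein, was scarce in control. Its single cluster, Cluster-41911.0, had 12.8, 11.98 and 18.2 normalized CPM in control and 89.7, 70.4 and 68.3 in cold. It was 5.31-fold higher in cold without overlap (log2 fold change 2.41, SE 0.30, adjusted p = 0.000167).

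HOX11, also a rice name, was the best match of 3 sums with 3 different outcomes. Swiss-Prot named their clusters after HAT14 of Arabidopsis or HOX27 of rice. The sum led by Cluster-14918.104669 had 701, 674 and 697 normalized CPM in control and 810, 877 and 942 in cold (log2 fold change 0.35, SE 0.06, adjusted p = 0.00141). That increase was lost on the scale of the whole library, where the log2 fold change was -0.03. In FPKM, which is also scaled to whole-library reads, the groups overlapped at 80.8 ± 3.73 and 80.7 ± 5.29.

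The HOX11 sum of Cluster-14918.111324 had 66.8, 57.6 and 62.4 normalized CPM in control and 13.7, 17 and 5.63 in cold. It was 5.13-fold lower in cold (log2 fold change -2.36, adjusted p = 0.000914). The third HOX11 sum, led by Cluster-14918.109209, averaged 191.9 ± 31.2 normalized CPM in control and 191.5 ± 11.9 in cold (adjusted p = 0.979).

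HAT4, the shade-induced ATHB-2 of Arabidopsis, was the best match of 2 sums. The sum led by Cluster-14918.13619, a cluster that Swiss-Prot named after HAT3, had 87.9, 77.1 and 81.3 normalized CPM in control and 60.8, 57.2 and 60.5 in cold (log2 fold change -0.46, SE 0.17, adjusted p = 0.0406). This call was lost on leaving out any control replicate or cold replicate 1 or 2, with adjusted p between 0.0569 and 0.1001, and with DESeq2. The larger HAT4 sum, led by Cluster-14918.24950, overlapped between the groups in normalized CPM (adjusted p = 0.119). On the scale of the whole library both were lower in cold, with log2 fold changes of -0.84 (adjusted p = 0.00264) and -0.67 (adjusted p = 0.00413). In FPKM, also scaled to whole-library reads, the larger sum had 12.16, 12.21 and 12.38 in control and 6.04, 7.12 and 9.12 in cold, without overlap. HAT9 (Cluster-14918.105951) averaged 324.4 ± 11.7 normalized CPM in control and 289.7 ± 30.2 in cold (adjusted p = 0.149).

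In HD-Zip III, 6 of the 8 sums were tested, 3 were lower in cold (50%, beside 36.9% of all sums) and 0 were higher (beside 35.0%), with a median log2 fold change of -0.59. None was higher at an unadjusted p under 0.05 with edgeR, or with DESeq2. On the scale of the whole library all 6 were lower, beside 1107 of all 2352 sums. By cluster, 16 were tested, 1 was higher (6.25%, beside 21.9% of all clusters) and 2 were lower (12.5%, beside 23.6%). The cluster that was higher, Cluster-14918.157203 (ATHB-15), had 50.7, 9.41 and 26.5 normalized CPM in control and 180, 73.8 and 115 in cold (adjusted p = 0.0498), and its call was lost in 5 of the 6 fits that left out 1 library, with adjusted p between 0.0634 and 0.146. The lower ones were Cluster-14918.175194 (REVOLUTA) and Cluster-14918.96125 (ATHB-14), the latter lost in 4 of the 6 fits with adjusted p between 0.0848 and 0.105.

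ATHB-14, the PHABULOSA protein that sets the upper leaf side in Arabidopsis, was the most abundant HD-Zip III protein by FPKM. Its sum led by Cluster-14918.96125 had 1582, 1715 and 1619 normalized CPM in control and 1044, 1051 and 1013 in cold. It was 1.58-fold lower in cold without overlap (log2 fold change -0.66, SE 0.05, adjusted p = 4.77e-06), and it had 36.4 ± 1.51 FPKM in control and 17.7 ± 0.466 in cold.

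REVOLUTA, which in Arabidopsis acts in leaf polarity and in the meristems of leaf axils, was the best match of 2 sums. Swiss-Prot named both clusters of the less abundant one after ATHB-9, the PHAVOLUTA protein of Arabidopsis, so its identity as REVOLUTA is uncertain. That sum, led by Cluster-14918.175194, had 19.2, 21.1 and 17.1 normalized CPM in control and 0 in each cold library. It was at least 12.9-fold lower in cold, taking a floor of 3 counts over the group (adjusted p = 0.000897). The larger REVOLUTA sum, led by Cluster-14918.149034, had 74.1, 63.6 and 66.3 normalized CPM in control and 48.6, 51 and 43.6 in cold. The groups did not overlap, and the test just missed the threshold (log2 fold change -0.51, SE 0.20, adjusted p = 0.0511).

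ATHB-15, the CORONA protein of Arabidopsis that acts in vascular patterning, gave its name to 5 sums. Swiss-Prot named 1 of the 3 clusters in the sum led by Cluster-14918.95127, and the single Cluster-14918.24704, after the related ATHB-8, and the NR protein of the former sum carries no name. The largest, led by Cluster-14918.134110 with 12 clusters, had 722, 743 and 763 normalized CPM in control and 680, 801 and 896 in cold. It overlapped (adjusted p = 0.385), and its log2 fold change of 0.09 became -0.28 on the scale of the whole library. The sum led by Cluster-14918.95127 had 99.8, 92.8 and 96.3 normalized CPM in control and 92.7, 97.4 and 97.1 in cold (adjusted p = 0.977).

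The third ATHB-15 sum, Cluster-14918.141874, was the one that fell. It had 48.5, 60.6 and 64.7 normalized CPM in control and 13.7, 0 and 18.3 in cold (log2 fold change -2.41, SE 0.75, adjusted p = 0.0205). The groups did not overlap, but the call was lost without control replicate 2 (adjusted p = 0.0551) or control replicate 3 (adjusted p = 0.0691). The remaining sums were too low to test, Cluster-14918.112828 with 9.15, 2.25 and 7.89 normalized CPM in control and 0, 3.09 and 2.81 in cold, and Cluster-14918.24704 with 1.70 in control replicate 3 and 0 in the other libraries.

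Of the 16 HD-Zip IV sums, 10 were tested, 7 were lower (70%, beside 36.9% of all sums) and 1 was higher (10%, beside 35.0%) in cold, with a median log2 fold change of -0.92. By cluster, 26 were tested, 9 were lower (34.6%, beside 23.6% of all clusters) and 2 were higher (7.69%, beside 21.9%). The 7 lower sums were the 4 matches of ANTHOCYANINLESS 2 and those of MERISTEM L1, GLABRA 2 and HDG12, the last of uncertain placement.

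MERISTEM L1, which in Arabidopsis gives the outer cell layer its epidermal identity, had 1057, 1067 and 1074 normalized CPM in control and 493, 531 and 438 in cold in the sum of 17 clusters led by Cluster-14918.93854. The control libraries lay within a narrow range and the sum was 2.19-fold lower in cold (log2 fold change -1.13, SE 0.07, adjusted p = 2.02e-06). GLABRA 2, which acts on leaf hairs and root hairs in Arabidopsis, had 62.3, 68.9 and 73.9 normalized CPM in control and 25.6, 30.5 and 33.6 in cold (Cluster-14918.127496). It was 2.26-fold lower (log2 fold change -1.18, SE 0.23, adjusted p = 0.00219).

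ANTHOCYANINLESS 2, needed for anthocyanin in the cell layer below the leaf epidermis of Arabidopsis, was lower in all 4 of its matches. The largest sum, led by Cluster-14918.104255, had 1750, 1662 and 1700 normalized CPM in control and 820, 941 and 907 in cold (log2 fold change -0.94, SE 0.06, adjusted p = 1.87e-06). The sum led by Cluster-14918.159878 had the largest decrease of the 4, from 155, 186 and 172 normalized CPM in control to 47.1, 61.8 and 45.0 in cold (log2 fold change -1.74, SE 0.17, adjusted p = 4.24e-05). The sums led by Cluster-14918.138886 and Cluster-14918.94197 had log2 fold changes of -0.83 and -0.90, with adjusted p of 7.72e-06 and 0.000532. The groups overlapped in none of the 4. NR describes the match of Cluster-14918.138886 as isoform X2 and that of Cluster-14918.159878 as isoform X1, so the 4 matches need not be 4 genes.

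HDG12, another epidermal factor of Arabidopsis, was the HD-Zip IV sum of highest FPKM. The sum led by Cluster-14918.102467 had 444, 418 and 438 normalized CPM in control and 173, 168 and 177 in cold, and it was 2.50-fold lower (log2 fold change -1.32, SE 0.07, adjusted p = 1.16e-06). It joins 5 clusters of the HB family with the same uncharacterized best match, of which 3 carried the HD-Zip name in Swiss-Prot. For these 3 no START domain or leucine zipper was listed, and the leading one carried the N-terminal domain typical of HD-Zip II. The place of this sum in HD-Zip IV rests on the Swiss-Prot name and is uncertain. HDG5 (Cluster-14918.109889) had 297, 287 and 274 normalized CPM in control and 268, 258 and 238 in cold, without overlap but not past the threshold (adjusted p = 0.102). HDG11 (Cluster-32091.1), a factor of leaf hair branching in Arabidopsis, had 14.6 ± 4.95 normalized CPM in control against 8.95 ± 1.67 in cold (adjusted p = 0.228).

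The HD-Zip IV sum that rose was ROC8 (Cluster-39932.1), named after a rice protein. It had 7.0, 12.3 and 15.6 normalized CPM in control and 28.6, 29.2 and 48.5 in cold, and its level stayed below 1 FPKM in the mean of either group (log2 fold change 1.58, SE 0.45, adjusted p = 0.0132). The call was lost without control replicate 1 (adjusted p = 0.0512) or cold replicate 3 (adjusted p = 0.0678).

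Among other epidermal regulators of the table, 5 of 9 sums were tested, 3 were lower (60%, beside 36.9% of all sums) and 1 was higher (20%, beside 35.0%) in cold, with a median log2 fold change of -0.29. Their summed FPKM was 72.29 to 75.70 in control and 47.69 to 51.46 in cold. A basic helix-loop-helix factor (Cluster-14918.127175) averaged 136 ± 10.96 normalized CPM in control and 2.41 ± 4.17 in cold (log2 fold change -5.70, adjusted p = 0.000112). The other lower sums were EGL1-like, with log2 fold changes of -0.43 and -0.29. The guard cell factor FAMA was higher in its sum led by Cluster-14918.174143 (log2 fold change 0.99, adjusted p = 0.00219) and did not pass the test in its other tested sum (adjusted p = 0.431). Among the untested sums, SPEECHLESS-like (Cluster-28058.0) had 8.24, 5.99 and 7.89 normalized CPM in control and 22.9, 12.6 and 22.5 in cold. MUTE (Cluster-30936.0) had 1.83, 4.49 and 0.789 in control and 6.08, 10.8 and 18.3 in cold. The remaining untested sums overlapped between the groups. Whether these genes and HD-Zip IV share a source was not tested.

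Single clusters did not always follow their sum. In 3 best matches clusters were called both ways, and 3 clusters went against the call of their sum. The 1 that was lower within a higher sum was Cluster-14918.149331, a cluster of 1223 bases with a HAT5 best match in NR and the name ATHB-54 in Swiss-Prot. It had 86.7, 69.8 and 76.4 normalized CPM on the scale of the cluster test in control and 0 in each cold library. It was at least 53.8-fold lower in cold (adjusted p = 0.00149), while the HAT5 sum to which it belongs was higher.

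Within that match, Cluster-14918.149331 held 3.44 ± 0.405% of the counts in control and 0% in cold. Cluster-14918.97384 of the same match had 49.6, 73.0 and 58.6 normalized CPM in control and 384, 545 and 498 in cold (log2 fold change 2.97, SE 0.22, adjusted p = 0.000196), and its share went from 2.67 ± 0.516% to 7.31 ± 1.13%. The leading Cluster-14918.120533 kept nearly the same share, 86.0 ± 1.10% in control and 85.9 ± 1.24% in cold.

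The other large HAT5 match also changed its make-up. Its leading Cluster-14918.116723 had 2915, 3181 and 3137 normalized CPM in control and 8911, 9384 and 8968 in cold, with a log2 fold change of 1.56. It held 81.9 ± 0.418% of the match in control and 73.1 ± 0.8% in cold. Cluster-14918.116724 rose further, from 78.0, 59.1 and 69.4 normalized CPM to 1148, 895 and 1108 (log2 fold change 3.93, SE 0.16, adjusted p = 2.21e-05).

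The share of Cluster-14918.116724 was 1.84 ± 0.336% in control and 8.47 ± 1.23% in cold. For each of these changed shares the groups did not overlap, and the exact two-sided permutation test gave its smallest p, 0.1. Whether such clusters are different genes, alleles or splice forms is not stated in the table.

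Of the other large cluster increases, Cluster-14918.112821 (HAT5) had 1.04, 22.9 and 0 normalized CPM in control and 197, 206 and 205 in cold. Its fitted log2 fold change of 4.65 had a large error (SE 1.41, adjusted p = 0.0401), and the call was lost in 5 of the 6 fits that left out 1 library, with adjusted p between 0.0564 and 0.102. Cluster-14918.147478 (HAT5) had 6.70, 4.09 and 5.55 normalized CPM in control and 20.3, 30.8 and 57.7 in cold (adjusted p = 0.0133), and its call was lost in 2 of the 6 fits.

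**Figure D4:**
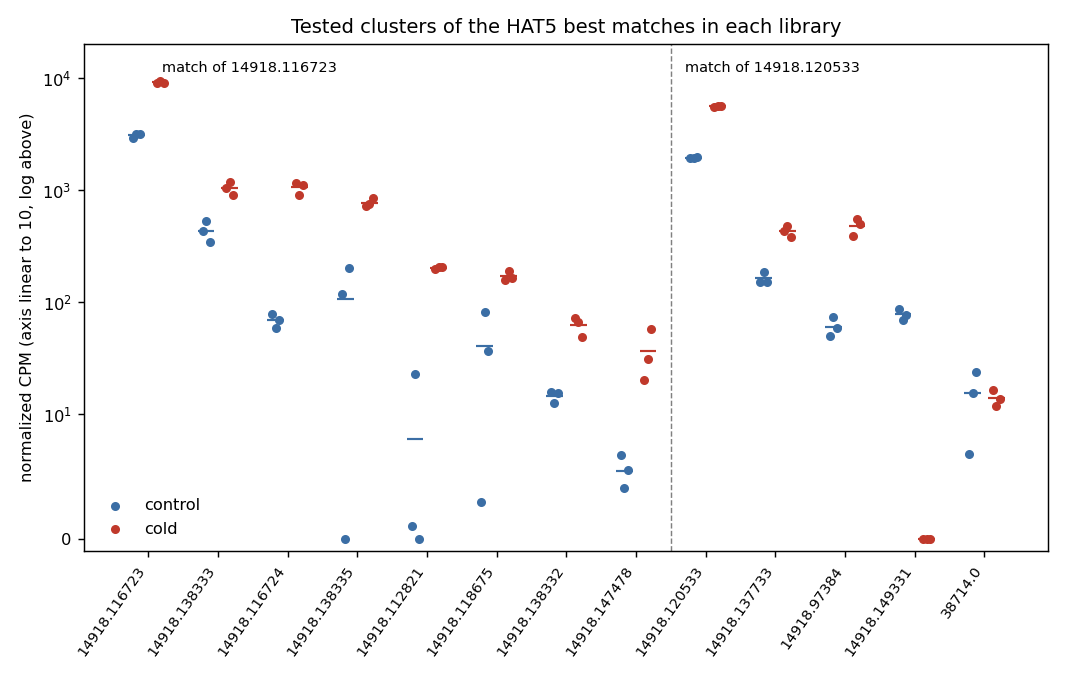
Normalized CPM of the tested clusters of the 2 large HAT5 best matches in each library, on an axis that is linear to 10 and logarithmic above, with a line at each mean. Cluster-14918.149331 lies at 0 in the 3 cold libraries, while the leading clusters of both matches lie higher in cold in every library.

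Cluster-14918.175194 (REVOLUTA) was at least 14.2-fold lower in the cluster test. The next largest cluster decreases were in ATHB-13 and ANTHOCYANINLESS 2. Cluster-14918.46293 (ATHB-13) had 17.8, 16.8 and 24.3 normalized CPM in control and 0, 1.49 and 0 in cold (log2 fold change -5.00, SE 1.04, adjusted p = 0.0109). Cluster-14918.159878 (ANTHOCYANINLESS 2) had 143, 185 and 164 normalized CPM in control and 10.8, 24.5 and 15.8 in cold (log2 fold change -3.27, SE 0.37, adjusted p = 0.00106). Cluster-14918.121497 (ANTHOCYANINLESS 2) had 30.04, 38.1 and 29.7 normalized CPM in control and 0, 0 and 4.27 in cold (adjusted p = 0.0308), and its call was lost in 5 of the 6 fits that left out 1 library, with adjusted p between 0.0671 and 0.0888.

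The other clusters that went against their sum were chosen after their values were seen. Cluster-14918.104254 (ANTHOCYANINLESS 2) had 133, 71.6 and 64.7 normalized CPM in control and 256, 183 and 176 in cold (log2 fold change 1.19, SE 0.35, adjusted p = 0.0363), a call lost in 5 of the 6 fits. Cluster-14918.52433 (MERISTEM L1) had 59.7, 59.0 and 40 normalized CPM in control and 162, 114 and 114 in cold (log2 fold change 1.31, SE 0.29, adjusted p = 0.0133). Both sums were lower in cold, so these clusters rose within matches that fell.

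The 15 untested sums were 2 matches each of HAT22, HOX3, ATHB-15 and HDG11, and 1 each of ATHB-6, ATHB-13, HOX17, HDG2, HDG5, ROC4 and ROC8. The highest of them by mean was HAT22 (Cluster-14918.134333), with 9.15, 9.73 and 9.47 normalized CPM in control and 6.08, 12.4 and 5.63 in cold. They were left out by the filter on low counts, so no difference between the groups was tested. HOX3 (Cluster-14918.2796), with 4.58, 2.25 and 0.789 normalized CPM in control and 6.08, 7.73 and 12.7 in cold, and HOX17 (Cluster-21157.1), with 2.80, 2.99 and 2.37 in control and 1.52, 0 and 1.41 in cold, did not overlap between the groups.

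Regulators that act beside HD-Zip factors were read from the same fit. Of 11 sums named for ABA response, 6 were tested, 4 were higher (66.7%, beside 35.0% of all sums) and 2 lower (33.3%, near the 36.9% of all sums) in cold, with a median log2 fold change of 1.21. The TRAB1-like bZIP factor (Cluster-14918.121845), named after a rice protein that binds ABA-responsive elements, averaged 284 ± 11.9 normalized CPM in control and 1720 ± 115 in cold (log2 fold change 2.60, SE 0.07, adjusted p = 1.35e-08). One of the lower sums, ARM REPEAT PROTEIN INTERACTING WITH ABF2-like (Cluster-14918.93273), is named for a partner of such a factor and is not a bZIP protein itself. The other was ABSCISIC ACID-INSENSITIVE 5-like protein 2 isoform X1 (Cluster-14918.125083). It averaged 181 ± 17.8 normalized CPM in control and 79.1 ± 14.1 in cold (log2 fold change -1.18, SE 0.16, adjusted p = 0.000322).

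Of 7 sums named for phytochrome-interacting factors (PIF), which drive growth in shade and darkness, 5 were tested, 4 were higher in cold (80%, beside 35.0% of all sums) and 0 were lower (beside 36.9%), also at an unadjusted p under 0.05 and with DESeq2. PIF4 (Cluster-14918.138689) averaged 334 ± 28.9 normalized CPM in control and 1926 ± 72.4 in cold (log2 fold change 2.53, SE 0.07, adjusted p = 1.84e-08). Of HAT4, the shade-induced HD-Zip II factor, neither sum was higher in cold, and the difference itself was not tested.

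Of 18 sums named for leaf polarity, 13 were tested, 6 were higher (46.2%, beside 35.0% of all sums) and 3 lower (23.1%, beside 36.9%) in cold, with a median log2 fold change of 0.68. All 3 lower sums were KANADI factors, among them KAN1 (Cluster-14918.94965) at a log2 fold change of -0.61 with an adjusted p of 0.00408. Not every KANADI sum fell, since KAN2 isoform X1 (Cluster-14918.37412) did not pass the test (log2 fold change 0.14, adjusted p = 0.728). The higher sums were YABBY factors and auxin response factors 3 and 4, among them YABBY 1 (Cluster-19533.0) with 10.1 ± 3.26 normalized CPM in control and 78.0 ± 17.6 in cold (adjusted p = 0.000158). HD-Zip III, known for the upper leaf side, had 3 lower sums and 0 higher on the same scale.

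The rest of the HB family had 83 sums, of which 50 were tested, 20 were higher (40%, beside 35.0% of all sums) and 22 lower (44%, beside 36.9%) in cold, with a median log2 fold change of -0.18. The HD-Zip sums had 8 higher and 19 lower of 38. The difference between these groups was not tested.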

How the data were processed

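Leaf RNA of 3 control and 3 cold-treated groups of V. bonariensis was sequenced, and libraries were grouped by their labels. The authors deposited 1 table limited to regulators, with 10251 lines for 9740 clusters, each used once. The authors deposited estimated counts per cluster without normalization, some of them fractional. The FPKM values deposited by the authors are scaled to cluster length and whole-library reads. The log2 ratio and q value columns of the authors' own deposited comparison were not used, nor read against these results. The submitters' processing notes name Bowtie2 2.0.6 and TopHat2 2.0.12, with the assembler and counter not given in the sources used here. Alignment scores deposited by the authors are those of the NR match.

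Counts were rounded and, for sums, first added over clusters of the same NR protein and family. The test was edgeR 4.0.16 (quasi-likelihood, TMM, filterByExpr at a minimum count of 10, with condition alone as a term) in R 4.3.3, adjusted by Benjamini-Hochberg over all rows tested at a threshold of 0.05. Standard errors were derived from the F statistic, dividing the log2 fold change by its root. Whole-library totals, recovered from count, FPKM and length of clusters with at least 5 FPKM, were 16955890 to 20695615 reads in control and 13075965 to 14326878 in cold. A floor of 3 counts over a group served where a group was at 0, and it covers counting error only. Replicates differed by more than sampling noise, with a chi-square of 12.6 to 14.6 per cluster. The tests were first tested on simulated counts.

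Named sums were the 5 largest changes in each direction without overlap (mean CPM of 1 or more), the 5 of highest FPKM, and all of HD-Zip III and of ATHB-7 and ATHB-12. Named clusters were the 5 largest changes in each direction, the leading cluster of each named sum and those called against it. Other members are given by name and direction, with values for those that show how matches of a protein differ. Members and lists were chosen with earlier results of these data known. The meristem and vascular marker lists matched 0 clusters. Alternatives were DESeq2 1.42.0, a fit with the replicate number as a block, scaling by RLE factors, by the table's library totals or by whole-library totals, testing without a filter or with a stricter one (at least 10 counts throughout a group, mean CPM of 1), limma 3.58.1 on log2 FPKM with 1 or 0.1 added, an adjusted p under 0.01, and each library left out. Sums and plots used Python 3.11.15, pandas 2.3.3, numpy 2.4.6 and matplotlib 3.10.9.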

Additional observations from a re-analysis of the deposited data

How the results depend on the processing

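Of the 27 called HD-Zip sums, 22 kept their call under all 15 alternatives. The 5 exceptions were ATHB-15 (Cluster-14918.141874), HAT4 (Cluster-14918.13619), HOX11 (Cluster-14918.104669), HOX21 (Cluster-14918.19169) and ROC8 (Cluster-39932.1). Of the 37 called clusters, 26 kept their call whichever library was left out. The sum of ATHB-15 led by Cluster-14918.134110 turned to a log2 fold change of -0.28 with whole-library totals, -0.33 with limma on log2(FPKM + 1) and -0.35 on log2(FPKM + 0.1). Over all named sums and clusters, 566 of 630 alternative values kept direction and side of the threshold, 39 lost the threshold, 22 gained it and 3 reversed. The cause of these changes was not tested, and clusters with few counts limit what single calls can show.

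Clusters higher in cold (16) were 10 at an adjusted p under 0.01 and 8 when summed by best match. Clusters lower in cold (21) were 37 and 35 with limma on both pseudocounts and 13 at 0.01. HD-Zip II sums lower in cold (2) were 1 with RLE factors, DESeq2, the stricter filter or 0.01, 5 with library totals alone, and 6 with whole-library totals or limma on either pseudocount. HD-Zip III sums lower in cold (3) were 6 with whole-library totals or limma on either pseudocount. HD-Zip IV sums higher in cold (1) were 0 at 0.01. PIF sums lower in cold (0) were 1 with no filter, library totals alone, whole-library totals or limma on either pseudocount.

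The replicate numbers do not pair the libraries, since deviations of same-numbered libraries correlated at -0.04, -0.01 and 0.003. With the replicate block, 10 clusters were lower and 13 higher, 1 HD-Zip II sum was lower, and 8 HD-Zip sums were higher and 16 lower. The block changed the side of the threshold for 10 of the 42 named sums and clusters.

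On leaving out each library in turn, the clusters higher in cold ranged from 11 to 15 and the clusters lower from 15 to 26. The sums ranged from 7 to 9 higher and from 16 to 20 lower. HD-Zip I had 4 sums higher and 6 to 7 lower, HD-Zip II 3 higher and 1 to 3 lower, HD-Zip III 0 to 1 higher (1 without cold replicate 1) and 2 to 3 lower, and HD-Zip IV 0 to 1 higher and 7 lower. The lists ranged from 6 to 7 higher for leaf polarity with 3 lower, from 1 to 2 higher for epidermis with 3 lower, from 4 to 5 higher and 0 to 1 lower for PIF, and from 19 to 21 higher and 20 to 22 lower for the rest of the HB family, with 4 higher and 2 lower for ABA throughout.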
